A study of Mus musculus with 8 samples.

Results

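The comparison described here is that of mouse hippocampal neurons exposed to bicuculline for 180 min with the same kind of neurons at 0 min. Its members are 4 of the 8 arrays of the series, chosen by their labels: 2 biological replicates titled 180 min and 2 titled 0 min. The neurons came from ICR mice, an outbred laboratory strain, at stage E17.5 of gestation, and had been in culture for 10 days. The labels name 50 µM bicuculline for every group and no genetic change, so the groups differ only in the stated time of exposure. The other 4 arrays, of 30 and 300 min, enter through the shared estimate of spread and as values beside those of 180 min. They also enter the mean signals by which the row of each gene was chosen and the background was marked. The labels name no culture kept for 180 min without bicuculline, so each change is a difference from the 0 min arrays, and time after the start of the experiment and bicuculline cannot be told apart. The replicates are labelled biological with no word on whether dissections or only dishes differed, and p-values here cover the spread among these arrays alone.

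Bicuculline blocks GABA-A receptors, which carry most fast inhibition in the forebrain, so excitatory firing in a cultured network rises and calcium enters the neurons. Calcium-activated kinases then switch on transcription in waves. Immediate-early genes, many of which encode transcription factors such as Fos and Npas4, respond without new protein synthesis. They are followed by delayed genes for secreted factors, receptors, scaffolds and enzymes that alter synapses, among them Bdnf. Feedback genes such as those for dual-specificity phosphatases and Sprouty proteins dampen the same kinases.

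The arrays were of the Affymetrix type Mouse Gene ST 1.0, which measures RNA, and all values are deposited log2 signals, 1 per transcript cluster and array. A difference of 1 on this scale is a 2-fold change. After rows with a single gene symbol were kept and the brightest cluster was taken for each gene, 19938 genes were tested. The medians of the arrays over all rows lay between 4.84 and 4.88, and the replicate pair of 0 min correlated at r = 0.988 and that of 180 min at 0.985 over the rows. The 1027 olfactory receptor genes served as a rough mark of background, with a 95th percentile of 4.46 for their mean signal. With 2 arrays per time, precision is limited by their number.

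The labelled cell type was checked against its markers. All 10 measured neuron markers lay above the olfactory receptor 95th percentile, as did 7 of 7 excitatory and 12 of 13 inhibitory neuron markers and 10 of 10 astrocyte markers. Of the oligodendrocyte lineage markers 8 of 10 lay above it, of the microglia markers 8 of 11, of the endothelial and mural markers 6 of 12, of the fibroblast and meningeal markers 6 of 9 and of the progenitor and dividing cell markers 9 of 11. Over all genes, 13601 of the 19938 tested lay above it, so counts near that share say little about which cells were present. None of the 104 marker entries passed the test at 180 min (limma, adjusted p under 0.05), and 5 were higher and 8 lower at an unadjusted p under 0.05, a level that 5.71% and 7.07% of all genes reached in these directions. These entries were not spread evenly: 4 of the 5 higher were among the 11 progenitor and dividing cell markers, and 3 of the 8 lower among the 10 astrocyte markers. The summed linear signal of the neuron markers was 10359 and 9683 at 0 min and 9129 and 9559 at 180 min, ranges that did not overlap. That of the astrocyte markers was 1038 and 1224 at 0 min and 1045 and 952 at 180 min, which overlapped. The inhibitory neuron markers summed to 3759 and 3694 at 0 min and to 3976 and 4091 at 180 min, and the progenitor and dividing cell markers to 1426 and 1479 and then to 1620 and 1779. The part of these small shifts in the results was not tested. In bulk RNA, fewer cells of a type and less RNA per cell cannot be told apart.

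After 180 min, 42 genes were higher and 24 were lower than at 0 min (limma, adjusted p under 0.05), which is 0.211% and 0.12% of the genes tested and 0.331% together. Genes for activity-regulated transcription factors, secreted proteins and signalling regulators made up most of the higher genes. The lower genes held 5 transcription factors or co-regulators, 5 regulators of chromatin or RNA, 5 signalling genes and 9 others. These role groups were formed after the values were seen. Changes of the called genes ran from 0.63 to 2.50 on the log2 scale among the higher and from -1.23 to -0.59 among the lower, with standard errors between 0.11 and 0.23. Of the 66 genes, 14 changed at least 2-fold. The arrays of 0 and 180 min did not overlap for any of the 66, and 43.6% of all genes likewise had arrays that did not overlap. Without a correction for the number of genes, 1138 genes were higher and 1410 lower at p under 0.05. The share of lower genes among those called was sensitive to scaling, with 48 higher and 17 lower after quantile normalization and 31 higher and 30 lower with each array centred on its median.

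**Figure D1:**
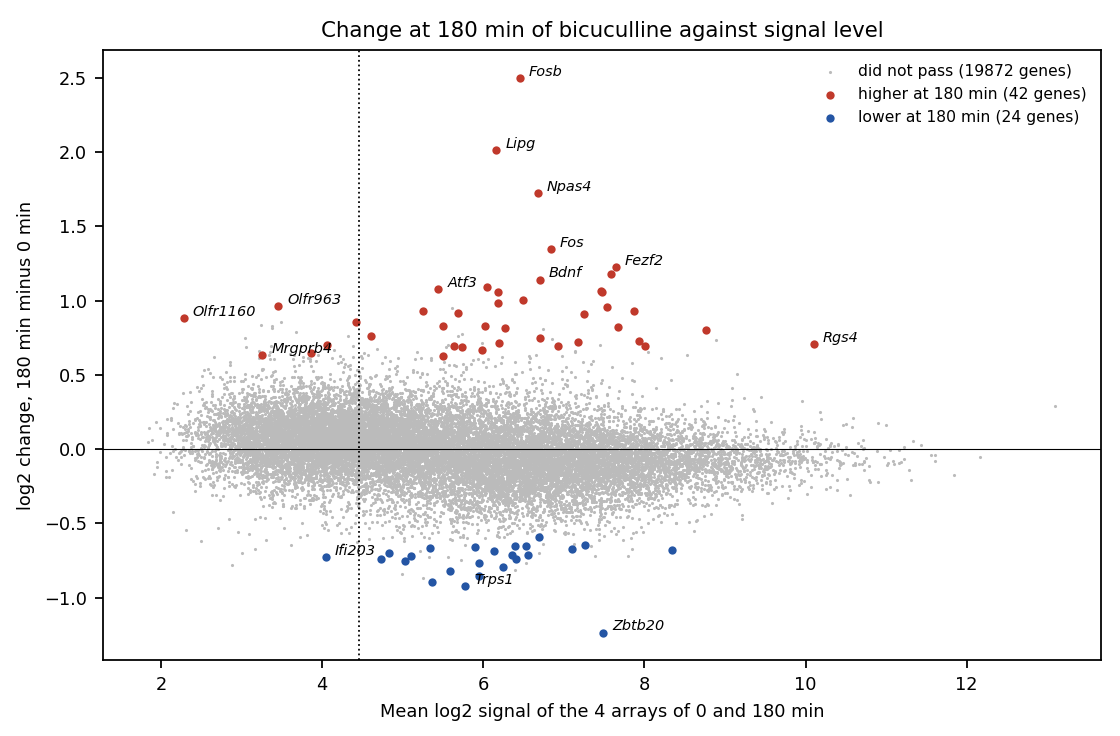
Change at 180 min against signal level for the 19938 genes tested. The x axis is the mean log2 signal of the 4 arrays of 0 and 180 min and the y axis the log2 change, with the 42 higher genes in red, the 24 lower genes in blue and the olfactory receptor 95th percentile of 4.46 as a dotted line. Fosb at 2.50 and Lipg at 2.01 lie farthest above 0 and Zbtb20 farthest below it.

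Of the 42 higher genes, 14 encode transcription factors or co-regulators. The log2 signal of Fosb, an AP-1 subunit, was 5.07 and 5.34 in the 0 min arrays and 8.11 and 7.29 in the 180 min arrays. Both 180 min arrays lay far above both 0 min arrays, although they differed from each other more than the 0 min arrays did. The change was 2.50 ± 0.22 (SE), a 5.65-fold rise (limma adjusted p = 0.000146). Npas4, an activity-dependent factor that regulates inhibitory synapses and Bdnf, read 5.67 and 5.96 at 0 min and 7.65 and 7.43 at 180 min. Its groups were well separated, with a change of 1.73 ± 0.14 (adjusted p = 7.76e-05 by limma). Fos, the partner of Jun proteins in AP-1, read 6.11 and 6.23 at 0 min and 7.65 and 7.38 at 180 min, a change of 1.34 ± 0.15. Npas4 and Fos were lower at 180 than at 30 min (limma adjusted p of 3.52e-06 and 0.0124), and for Fosb the same contrast had an adjusted p of 0.788.

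Fezf2, a zinc finger factor known from subcortical projection neurons, differed in its time course. It read 6.96 and 7.10 at 0 min and 8.18 and 8.33 at 180 min, so that both groups were tight and apart, with a change of 1.23 ± 0.12 (limma adjusted p = 0.000397). Its change at 30 min was only 0.26, and it was higher at 180 than at 30 min (limma adjusted p = 0.00192). Nr4a2 and Nr4a1 encode orphan nuclear receptors of the immediate-early class. Nr4a2 read 6.97 and 7.02 at 0 min and 8.53 and 7.82 at 180 min, a change of 1.18 ± 0.21 in which replicate 1 of 180 min was much the higher. Nr4a1 read 6.71 and 7.16 at 0 min and 8.14 and 7.86 at 180 min, a change of 1.07 ± 0.15, and it had been higher still at 30 min (2.16; 180 against 30 min, limma adjusted p = 0.00484). Atf3, a stress-inducible member of the ATF family, read 4.79 and 5.02 at 0 min and 6.15 and 5.81 at 180 min, a change of 1.08 ± 0.19.

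The other 7 factors rose by less than 2-fold. Nfil3, a leucine zipper repressor, rose by 0.95, the clock repressor genes Per1 and Per2 by 0.91 and 0.68, and the AP-1 gene Fosl2 by 0.69. Erf and Ets2, an ETS repressor under control of ERK and an ETS activator, rose by 0.81 and 0.70. Arid5a, which encodes an RNA-binding protein with an AT-rich interaction domain, rose by 0.67. Of the 14 genes, Fosb, Npas4, Fos and Fezf2 passed the test whichever of the 8 arrays was left out. The other 10 lost it without at least 1 array, 9 of them without 0 min replicate 1, 8 without 0 min replicate 2 and 9 without 180 min replicate 1, with highest adjusted p from 0.0571 for Per1 to 0.286 for Arid5a (limma). Arrays of 30 and 300 min bear on these calls only through the estimate of spread, and 7 of the 14 lost the call with either array of 30 min left out and 3 with either of 300 min.

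Sequence upstream of these genes is shown because many are textbook targets of CREB, the factor that binds the cAMP response element TGACGTCA and its core TGACG. RefSeq starts on assembly GRCm38.p6 were found for 35 of the 42 higher and 20 of the 24 lower genes, some with several starts, and 250 bases before each start were searched on both strands for 5 motifs. The core TGACG, which is also contained in TGACGTCA, lay in 46.5% of 43 windows of the higher genes, in 25% of 24 windows of the lower genes and in 21.4% of the 19177 windows of all tested genes. The full TGACGTCA lay in 1 window of the higher genes, that of Pcsk1, against 2.02% of all windows. The TATA motif TATAAA lay in 20.9% of windows of the higher, 4.17% of the lower and 10.5% of all genes. The AP-1 motif TGANTCA lay in 6.98%, 8.33% and 6.04% of the same windows, and the E-box CACGTG in 6.98%, 8.33% and 6.99%. A match is a description of letters, not a site or a cause. The 200 bases before the start of 7 genes among the 12 largest increases with a TGACG match follow, read 5′ to 3′ on the strand of the gene and ending at the base before the start, with the matches on either strand in capitals.
Fosb (chr7:19310046-19310245, minus strand): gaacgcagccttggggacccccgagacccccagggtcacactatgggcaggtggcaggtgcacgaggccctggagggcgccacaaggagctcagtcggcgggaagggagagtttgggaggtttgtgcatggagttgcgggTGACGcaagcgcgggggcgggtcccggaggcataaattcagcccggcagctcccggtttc
Npas4 (chr19:4989972-4990171, minus strand): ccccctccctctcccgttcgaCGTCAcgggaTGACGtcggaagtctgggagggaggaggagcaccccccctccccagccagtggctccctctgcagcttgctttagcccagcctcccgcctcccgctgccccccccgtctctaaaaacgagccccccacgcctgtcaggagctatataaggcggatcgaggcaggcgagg
Fos (chr12:85473690-85473889, plus strand): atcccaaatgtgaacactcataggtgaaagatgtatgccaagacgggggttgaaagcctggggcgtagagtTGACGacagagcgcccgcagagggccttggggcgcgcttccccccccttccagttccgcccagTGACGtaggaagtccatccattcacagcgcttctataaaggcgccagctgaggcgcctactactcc
Nr4a2 (chr2:57124004-57124203, minus strand): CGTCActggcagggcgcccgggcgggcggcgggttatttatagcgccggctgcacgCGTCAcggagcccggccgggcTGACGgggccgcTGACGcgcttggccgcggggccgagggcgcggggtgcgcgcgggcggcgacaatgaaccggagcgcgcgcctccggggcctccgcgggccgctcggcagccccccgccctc
Bdnf (chr2:109692236-109692435, plus strand): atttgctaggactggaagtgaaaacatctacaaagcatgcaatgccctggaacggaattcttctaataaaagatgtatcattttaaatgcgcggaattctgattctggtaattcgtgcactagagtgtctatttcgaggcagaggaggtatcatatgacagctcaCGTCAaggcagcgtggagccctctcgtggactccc
Pcsk1 (chr13:75089657-75089856, plus strand): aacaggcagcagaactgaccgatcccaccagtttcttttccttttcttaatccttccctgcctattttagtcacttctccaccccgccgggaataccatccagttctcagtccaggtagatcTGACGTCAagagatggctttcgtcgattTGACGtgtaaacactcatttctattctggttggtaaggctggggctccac
Gpr3 (chr4:133212537-133212736, minus strand): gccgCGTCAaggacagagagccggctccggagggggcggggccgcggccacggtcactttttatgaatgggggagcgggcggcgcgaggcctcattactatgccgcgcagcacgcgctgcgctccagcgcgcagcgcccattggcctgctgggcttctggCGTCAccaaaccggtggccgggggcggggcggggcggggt
In these stretches the match nearest to the start lay 60 bases before it for Fosb, 66 for Fos, 35 for Bdnf and 40 for Gpr3. Nr4a2 had 4 matches, Pcsk1 had 3, and Npas4 had 2 that lay 169 and 179 bases before its start. Of the 12 largest increases, 11 had a sequence to search and 9 of these a match in the last 200 bases, against 21.6% of the 15614 tested genes with a sequence.

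A further 8 of the higher genes encode secreted or extracellular proteins or their processing. Lipg, which encodes endothelial lipase, a secreted phospholipase of lipoproteins, read 5.16 and 5.15 at 0 min and 7.06 and 7.27 at 180 min. The 0 min arrays were nearly identical and both 180 min arrays stood far above them. The change was 2.01 ± 0.13, a 4.04-fold rise with the smallest adjusted p of the comparison (3.64e-06, limma). Bdnf, which encodes a neurotrophin that acts through the TrkB receptor, read 6.23 and 6.03 at 0 min and 7.16 and 7.38 at 180 min, a change of 1.14 ± 0.13. Pcsk1, a convertase that cuts prohormones and proneuropeptides in secretory granules, read 6.95 and 6.93 at 0 min and 7.78 and 8.22 at 180 min, a change of 1.06 ± 0.14. None of the 3 had moved much at 30 min, where their changes were 0.15, 0.13 and -0.25. Each was higher at 180 than at 30 min (limma adjusted p of 3.52e-06, 0.00192 and 0.000572). That contrast uses again the 180 min arrays for whose high values the genes were picked, so it is not independent support.

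The other secreted proteins include growth factors, a neuropeptide and a matrix protein. Alkal2, a ligand of the ALK receptor tyrosine kinase, rose by 0.98 and Inhba, whose product forms activin A, by 0.83. Penk, the precursor of the enkephalins, rose by 0.83 and Crhbp, which encodes a binding protein of corticotropin-releasing hormone, by 0.71. Acan encodes aggrecan, the main proteoglycan of perineuronal nets, and rose by 0.92. Lipg and Bdnf passed whichever array was left out. The other 6 genes lost it without 0 min replicate 1, and 5 also lost it without 0 min replicate 2. Dropping 180 min replicate 1 ended the call for 3, dropping 180 min replicate 2 or either array of 30 min for 4, and dropping either of 300 min for 2 (highest adjusted p from 0.0614 for Pcsk1 to 0.268 for Inhba, limma). The change of Inhba was 0.54 without 180 min replicate 2 and 1.13 without replicate 1, and its adjusted p had been 0.0493 with all arrays.

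Another 9 of the higher genes encode receptors, kinases, scaffolds or regulators of signalling. Gpr3, a receptor with high constitutive activity toward adenylyl cyclase, read 5.65 in both 0 min arrays and 6.78 and 6.64 at 180 min, a change of 1.06 ± 0.12. Its groups were far apart relative to their spread. Grasp, also known as tamalin, a postsynaptic scaffold for group I metabotropic glutamate receptors, read 5.51 and 5.49 at 0 min and 6.62 and 6.56 at 180 min, a change of 1.09 ± 0.12. Hunk, an AMPK-related kinase, read 5.95 and 6.02 at 0 min and 6.89 and 7.09 at 180 min, a change of 1.01 ± 0.12. These 3 genes passed whichever of the 8 arrays was left out, with highest values of 0.0156 for Gpr3 and Grasp and 0.0324 for Hunk (limma).

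The other 6 rose by less than 2-fold. Spry2, an inhibitor of receptor tyrosine kinase signalling, rose by 0.93, the MAP kinase phosphatase gene Dusp4 by 0.82, and Rgs2 and Rgs4, which speed GTP hydrolysis by G alpha subunits, by 0.80 and 0.71. Homer1, another scaffold for metabotropic glutamate receptors, rose by 0.72, and Sh3bp1 by 0.63. Dropping 0 min replicate 1 ended the call for all 6, dropping 0 min or 180 min replicate 2 for 5, dropping 180 min replicate 1 or either array of 30 min for 4, and dropping either of 300 min for 1 (highest adjusted p from 0.134 for Homer1 to 0.226 for Sh3bp1, limma). The remaining 11 higher genes had no shared role. Pcdh8, an activity-regulated protocadherin, rose by 0.73, Ccnf, the gene of cyclin F, by 0.93, Gla, the gene of lysosomal alpha-galactosidase A, by 0.74, and the RING finger genes Lonrf3 and Rnf122 by 0.76 and 0.69. Crybg3 rose by 0.85. Each of the 11 failed with some array dropped: 10 with either of 0 min, 8 with either of 30 min or 180 min replicate 1, 9 with 180 min replicate 2 and 7 with either of 300 min (highest adjusted p from 0.0599 for Ccnf to 0.286 for Rnf122, limma). Of the higher genes, 5 had mean signals under the olfactory receptor 95th percentile, namely Gml, Pnma5, Mrgprb4 and the olfactory receptor genes Olfr963 and Olfr1160. Olfr963 read 3.10 and 2.84 at 0 min and 3.98 and 3.89 at 180 min, a change of 0.96 at the level of background.

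**Figure D2:**
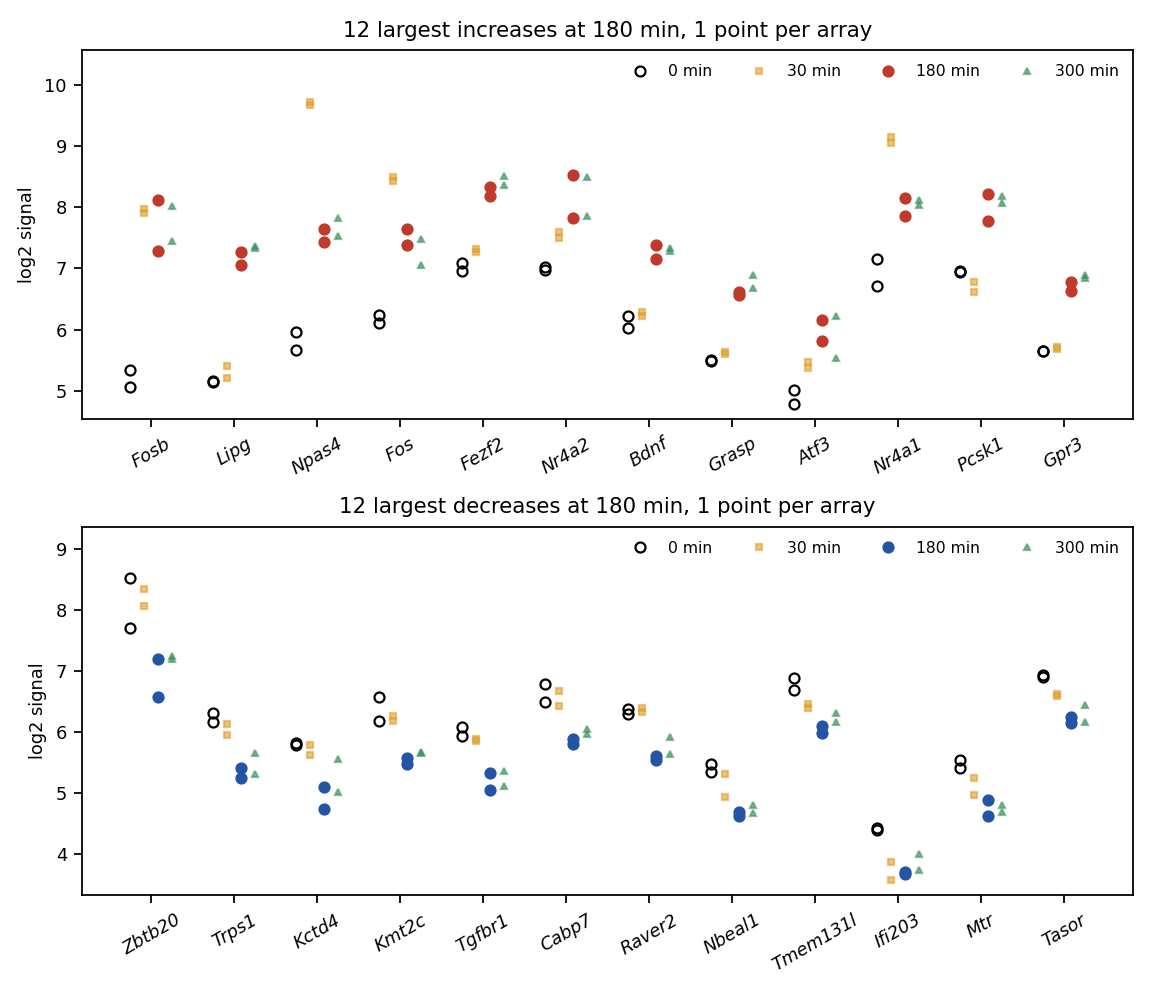
Log2 signal of the 12 largest increases and the 12 largest decreases at 180 min, 1 point per array, with 0 min as open circles, 30 min as squares, 180 min as filled circles and 300 min as triangles. Npas4, Fos and Nr4a1 peaked at 30 min, whereas Lipg, Fezf2, Bdnf, Grasp, Pcsk1 and Gpr3 were near their 0 min signal at 30 min and high at 180 and 300 min.

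Of the 24 lower genes, 10 encode regulators of transcription, chromatin or RNA. Zbtb20, a zinc finger repressor that directs the identity of hippocampal pyramidal neurons, read 8.51 and 7.70 at 0 min and 6.56 and 7.18 at 180 min. The groups did not overlap, but each spread widely, and the 2.35-fold decrease (-1.23 ± 0.23) was the largest of the comparison. It was -0.83 without 0 min replicate 1 and -1.64 without 0 min replicate 2. A dimmer transcript cluster of Zbtb20 changed by -0.43 ± 0.18, and the mean of its clusters by -0.83 (limma adjusted p = 0.0925). Trps1, a GATA-type repressor, read 6.31 and 6.16 at 0 min and 5.23 and 5.40 at 180 min, a tighter change of -0.92 ± 0.14 (limma adjusted p = 0.0154). Its other cluster changed by -0.28 ± 0.13, and the mean of both by -0.60 (limma adjusted p = 0.0543). Kmt2c, a histone H3 lysine methyltransferase of enhancers, read 6.56 and 6.17 at 0 min and 5.46 and 5.57 at 180 min, a change of -0.85 ± 0.14. Tasor, a subunit of the HUSH silencing complex, read 6.92 and 6.89 at 0 min and 6.25 and 6.15 at 180 min, a change of -0.71 ± 0.13. Raver2, an RNA-binding protein that interacts with the splicing repressor PTB, read 6.37 and 6.29 at 0 min and 5.54 and 5.60 at 180 min, a change of -0.76 ± 0.13.

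The other 5 fell by smaller amounts. Nsd1, another histone H3 lysine methyltransferase, fell by 0.67, the zinc finger genes Klf7 and Prdm8 by 0.68 and 0.64, and the homeodomain gene Zhx1 by 0.71. Tnrc6b, a partner of Argonaute in microRNA silencing, fell by 0.65. Each of these 10 genes had changed by between -0.30 and 0.13 at 30 min. All 10 lost the adjusted p under 0.05 without 0 min replicate 1 and without 180 min replicate 1, with highest adjusted p from 0.147 for Trps1 to 0.289 for Nsd1 (limma). Dropping 0 min replicate 2 or either array of 30 min ended the call for 8, dropping 180 min replicate 2 for 7 and dropping either of 300 min for 5.

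A further 5 of the lower genes act in signalling. Tgfbr1, the type I receptor for TGF-beta, read 5.93 and 6.07 at 0 min and 5.31 and 5.04 at 180 min, a change of -0.82 ± 0.13. Its groups were apart by several times the spread within each. Cabp7, a calmodulin-like calcium-binding protein, read 6.49 and 6.79 at 0 min and 5.88 and 5.80 at 180 min, a change of -0.80 ± 0.14. Rps6ka5, which encodes the kinase MSK1 that phosphorylates CREB and histone H3, fell by 0.65, the AMPK-related kinase gene Nuak1 by 0.59, and Npy2r, a presynaptic receptor for neuropeptide Y, by 0.70. Npy2r was lower still at 300 min (-1.13). All 5 failed with either array of 0 min or 180 min replicate 2 dropped, 4 with either of 30 min or 180 min replicate 1 dropped, and 3 with either of 300 min dropped (highest adjusted p from 0.127 for Tgfbr1 to 0.248 for Rps6ka5, limma).

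The other 9 lower genes had no shared role. Kctd4, which encodes a protein with a potassium channel tetramerisation domain, read 5.79 and 5.82 at 0 min and 4.73 and 5.09 at 180 min, a change of -0.89 ± 0.17. Nbeal1, a BEACH domain gene, read 5.33 and 5.48 at 0 min and 4.68 and 4.62 at 180 min, a change of -0.76 ± 0.14. The other cluster of Nbeal1 changed by -0.32 ± 0.22, and the mean of both by -0.54 (limma adjusted p = 0.136). Tmem131l read 6.68 and 6.88 at 0 min and 6.10 and 5.98 at 180 min, a change of -0.74 ± 0.12. Mtr, the gene of methionine synthase, read 5.53 and 5.41 at 0 min and 4.62 and 4.87 at 180 min, a change of -0.72 ± 0.14. Ifi203, an interferon-activated gene, read 4.39 and 4.43 at 0 min and 3.70 and 3.67 at 180 min, a change of -0.72 ± 0.14. It was the lower gene whose mean signal lay under the olfactory receptor 95th percentile, and it had already changed by -0.70 at 30 min. Slc24a2, a sodium, calcium and potassium exchanger, fell by 0.68, Rpgrip1l, a protein of the ciliary transition zone, by 0.67, and Glrx3, a glutaredoxin, by 0.66. All 9 genes, which include a predicted locus, failed with either array of 0 min or 180 min replicate 1 dropped, 8 with either of 30 min dropped, and 7 with 180 min replicate 2 or either of 300 min dropped (highest adjusted p from 0.142 for Tmem131l to 0.309 for Rpgrip1l, limma).

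Over the whole comparison, 9 of the 42 higher genes and none of the 24 lower genes passed the test whichever of the 8 arrays was left out. Fosb, Lipg, Npas4, Fos, Fezf2, Bdnf, Grasp, Gpr3 and Hunk were the 9. Leaving out either array of 30 min gives the same fit for 180 against 0 min, and so does leaving out either of 300 min. The arrays of each such pair are therefore not separate checks. When every row of the table was tested, including those without a gene, Lipg alone passed (limma adjusted p = 0.0119). The count of called genes was 15 without 0 min replicate 1, 22 without the other 0 min array, 28 and 68 without 180 min replicates 1 and 2, 23 when an array of 30 min was dropped and 38 when one of 300 min was. Of the genes called without 0 min replicates 1 and 2, 11 and 16 were among the 66, and of those called without 180 min replicates 1 and 2, 19 and 26 were.

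The values at the other times are given beside those of 180 min for the called genes. Changes from 0 min share the 0 min arrays. The contrasts of 180 min with 30 and 300 min share the 180 min arrays, so no agreement among these differences is drawn. Genes called higher were picked for high values in those arrays, which favours a rise from 30 to 180 min. The median change of the 42 higher genes was 0.17 at 30 min, 0.87 at 180 min and 0.90 at 300 min. For the 14 transcription factor genes the medians were 0.42, 1.01 and 0.99, for the 8 secreted protein genes 0.08, 0.95 and 1.11, and for the 9 signalling genes 0.12, 0.82 and 0.88. The 24 lower genes had medians of -0.13, -0.72 and -0.61. For 300 against 180 min, 0 of all 19938 genes had an adjusted p under 0.05 (limma), so its absence among the 66 is not particular to them. The smallest adjusted p of the 66 was 0.529 (limma). Of the 66, 10 had an unadjusted p under 0.05, against 5.72% of all genes in that contrast.

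**Figure D3:**
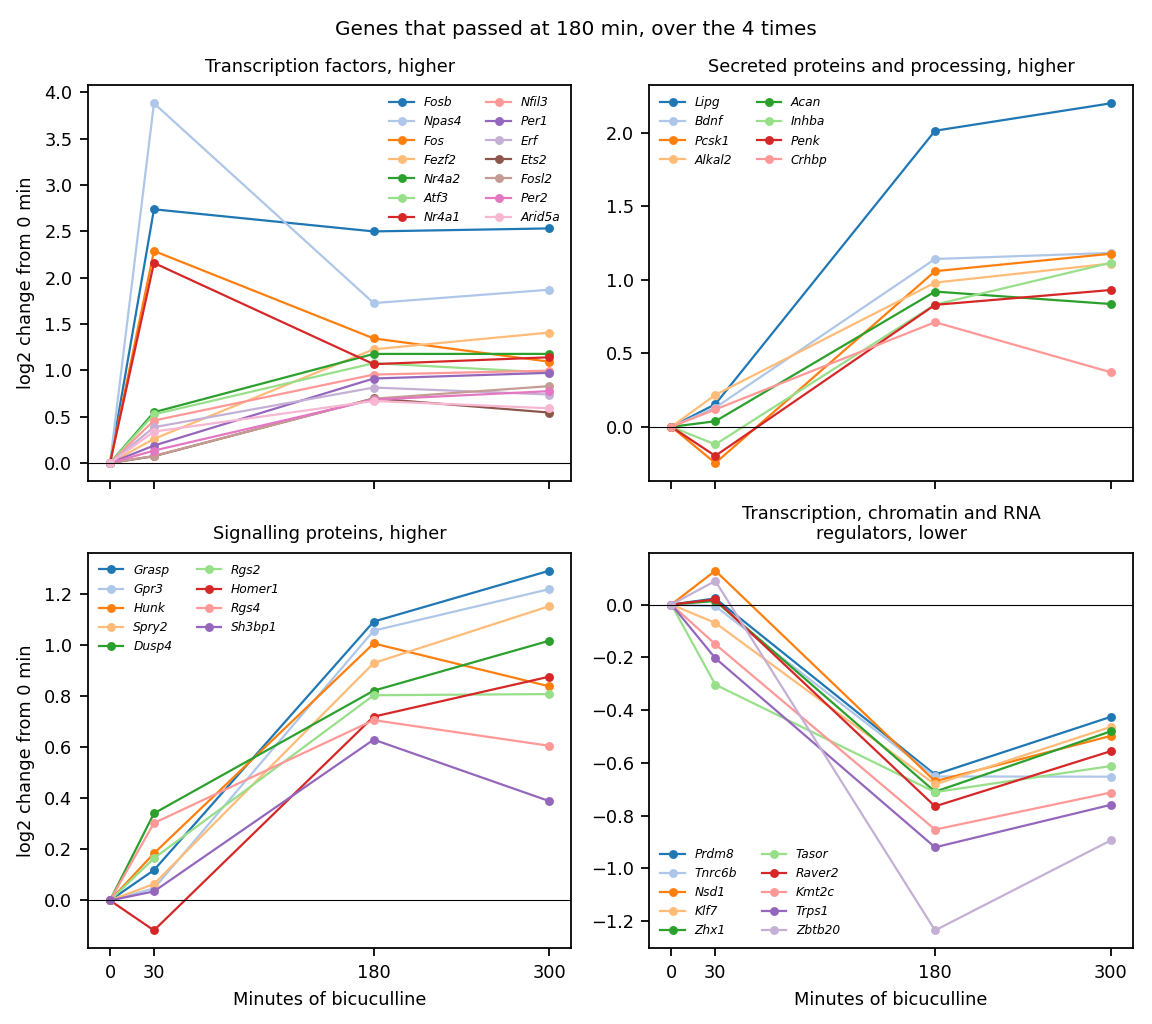
Mean log2 change from 0 min at 30, 180 and 300 min for called genes by role, 1 line per gene, with separate vertical scales in the 4 panels. Npas4, Fosb, Fos and Nr4a1 were above 2 at 30 min, while the secreted protein and signalling genes lay between -0.25 and 0.34 there and rose later, and the lower regulators had their lowest values at 180 min except Tnrc6b, which was level at 300 min.

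Gene lists of pathways were then described by their counts and medians, beside a median change of -7e-04 and quartiles of -0.13 and 0.12 over all genes. Counts at an unadjusted p under 0.05 stand beside the 5.71% of all genes that were higher and the 7.07% that were lower at that level (limma). The lists were chosen with earlier results of these data known, so their counts and medians are not independent support for a gene class. Of the 1138 genes on the 49 lists, markers included, 26 were among the higher and 13 among the lower genes. Of 46 measured delayed activity-regulated genes of neurons, 10 rose, 0 fell and 36 did not pass, with a median of 0.37. The 10 were Lipg, Fezf2, Grasp, Bdnf, Gpr3, Pcsk1, Alkal2, Acan, Penk and Inhba. The list's median was 2e-04 at 30 min and 0.37 at 300 min. Of 31 immediate-early transcription factors, 8 rose (Fosb, Npas4, Fos, Nr4a2, Atf3, Nr4a1, Nfil3 and Fosl2), and 23 did not pass, with a median of 0.25. Of 22 rapid activity effectors, Per1, Rgs2 and Homer1 rose (median 0.23). Sgk1, a kinase gene of the same list, changed by 0.63 ± 0.13 and did not pass (limma adjusted p = 0.0537). With 1 array left out, the delayed list had 5 to 8 higher members and the immediate-early list 3 to 9, both fewest without 0 min replicate 1, and the rapid list 0 to 3, fewest without 0 min replicate 2, while quantile normalization gave it 6. Medians of lists depended on single arrays: leaving out 1 array of 0 or 180 min changed the sign for 15 of the 49 lists and moved the median by over 1.5 times for a further 24.

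Among regulators of signalling, 4 of 25 genes rose on a list named for feedback inhibitors of MAP kinase and growth factor signalling, with a median of 0.22. They were Spry2, Dusp4, Rgs2 and Rgs4, of which Rgs2 and Rgs4 act on G alpha subunits. Without 0 min replicate 1 none of the 4 kept the call and the median was 0.13. Of 26 genes of the MAP kinase cascade and growth factor receptors, Rps6ka5 fell and the others did not pass. Of 23 neurotrophins and growth factors, Bdnf rose, and Fgf2, with 0.40 ± 0.12, did not pass (limma adjusted p = 0.202). The 38 genes of TGF-beta and activin signalling held a change each way: the ligand subunit gene Inhba rose and the receptor gene Tgfbr1 fell. Among 37 G protein-coupled receptors of neuromodulators, Gpr3 rose and Npy2r fell, and the serotonin receptor gene Htr2a, at 0.62 ± 0.14, did not pass (limma adjusted p = 0.0917).

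Of 23 neuropeptide precursors, Penk rose and 22 did not pass, with a median of 0.21 that was 0.08 without 180 min replicate 2. The granule protein genes Scg2 and Vgf had changes of 0.58 ± 0.12 and 0.61 ± 0.14 (limma adjusted p of 0.0585 and 0.0971). Of 10 prohormone processing enzymes Pcsk1 rose. Of 21 clock genes Per1, Per2 and Nfil3 rose, and Cry2, at 0.41 ± 0.12, did not pass (limma adjusted p = 0.187). With 1 array left out, 1 or 2 of the 3 kept the call, and 1 did without 0 min replicate 1. Of 27 genes for apoptosis, DNA damage and survival, 4 rose, namely Npas4, Nr4a1, Atf3 and Inhba, which also stand on the activity-regulated lists. No gene of the 23 for NF-kappaB and cytokines passed (limma), 4 were higher and 0 lower at an unadjusted p under 0.05, and the median was 0.17. Rel, a subunit of NF-kappaB, had 0.53 ± 0.12 there and Ptgs2, the cyclooxygenase gene, 0.61 ± 0.17.

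At the synapse, Grasp and Homer1 rose among 27 postsynaptic scaffold and adhesion genes, while the median of that list was -0.02, or 0.05 after quantile normalization. The 18 measured GABA-A receptor and inhibitory synapse genes, which include the target of bicuculline, all lay above the olfactory receptor 95th percentile. None of the 18 passed (limma), 2 were lower at an unadjusted p under 0.05, and the receptor subunit gene Gabrb1 had the smallest p at -0.45 ± 0.14 (limma adjusted p = 0.191). Of 24 AMPA, NMDA and kainate receptor genes none passed, and 3 were lower at an unadjusted p under 0.05. Grin2b, an NMDA receptor subunit gene, read a change of -0.56 ± 0.19. Of 25 sodium, calcium and HCN channel genes none passed (limma), but 9 were lower and 0 higher at an unadjusted p under 0.05. The median of the channel list was -0.24, the lowest of the 49 lists with all arrays. Without 0 min replicate 1 it was -0.15, above the -0.19 of the cholesterol and fatty acid list. Cacna1d and Scn8a, which encode pore subunits of calcium and sodium channels, had changes of -0.45 ± 0.13 and -0.45 ± 0.14.

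Lists of nuclear regulators had medians below 0, and so had many other lists. Among these were ribosomal proteins (-0.05), the respiratory chain (-0.06) and the heat shock response (-0.09). Genes above the olfactory receptor 95th percentile had a median of -0.04. Of these, genes that span 30 to 100 kb of the genome had -0.08 and those of 100 to 300 kb had -0.10. Of 45 histone and DNA modifying enzymes Kmt2c and Nsd1 fell and 43 did not pass, with a median of -0.20 that stayed between -0.24 and -0.15 without each array of 0 and 180 min. Setd2 and Kmt2e, also histone methyltransferase family genes, had changes of -0.55 ± 0.12 and -0.54 ± 0.13 (limma adjusted p of 0.0727 and 0.0953). Of 30 chromatin remodelling genes none passed (limma), 9 were lower and 1 higher at an unadjusted p under 0.05, and the median was -0.16, or -0.10 without 0 min replicate 1 and -0.25 without 180 min replicate 2. Of 29 genes of RNA polymerase II, Mediator and elongation none passed, 6 were lower and 1 higher at an unadjusted p under 0.05, and the median was -0.14, or -0.05 and -0.24 without 180 min replicates 1 and 2. Among 35 genes of the microRNA pathway and mRNA decay Tnrc6b fell, and its paralog Tnrc6a had -0.56 ± 0.13 (limma adjusted p = 0.0917). Among 40 splicing and nuclear RNA-binding genes Raver2 fell, and the kinase gene Clk1 had 0.81 ± 0.18 (limma adjusted p = 0.0741). Of 41 neuron identity and zinc finger repressor factors, Fezf2 rose and Zbtb20, Trps1 and Klf7 fell. Without 0 min replicate 1 none of these falls kept the call.

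Among the metabolic lists, Lipg rose on that of 23 lipases and lipid signalling genes. Of 29 cholesterol and fatty acid synthesis genes none passed (limma), 11 were lower and 0 higher at an unadjusted p under 0.05, and the median was -0.22, between -0.23 and -0.19 without each array. Acaca, which encodes acetyl-CoA carboxylase, had -0.57 ± 0.13 (limma adjusted p = 0.0835). Of 32 respiratory chain genes 1 was lower, and of 24 ribosomal protein genes 1 was higher and 1 lower, at an unadjusted p under 0.05. None of those passed, nor did any of 24 glycolysis and lactate genes (limma), of which 3 were higher and 6 lower at an unadjusted p under 0.05. The median of that list was -0.12, between -0.17 and -0.04 without 0 min replicates 1 and 2, and the monocarboxylate transporter gene Slc16a1 had 0.59 ± 0.13 (limma adjusted p = 0.0727).

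Among adhesion and guidance genes, Pcdh8 rose of 28 cadherins and protocadherins and Acan of 40 integrins, laminins and matrix genes. The cadherin median was -0.10, or -0.04 without 180 min replicate 1 and -0.15 without 0 min replicate 2. Of 37 axon guidance genes none passed, and 10 were lower and 2 higher at an unadjusted p under 0.05 (median -0.15). Epha6 and Dcc, guidance receptor genes, had -0.77 ± 0.17 and -0.61 ± 0.14, and Unc5b, a netrin receptor gene, had 0.59 ± 0.12 (limma adjusted p of 0.0835, 0.0846 and 0.062). Kctd4 fell of 35 ubiquitin ligases and deubiquitinases, while Usp53, a deubiquitinase family gene, had 0.78 ± 0.16 (limma adjusted p = 0.0604). Cabp7 fell of 33 calcium-binding and calmodulin pathway genes and Ifi203 of 23 interferon-stimulated genes. In all, 16 of the 39 pathway lists, with 424 entries, held no gene that passed (limma), and 21 of those entries were higher and 72 lower at an unadjusted p under 0.05. Of all genes, 5.71% were higher and 7.07% lower at that level. These 16 lists include the CREB, ATF, MEF2 and SRF factors, potassium channels, metabotropic glutamate receptors, the synaptic vesicle machinery and the heat shock response.

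**Figure D4:**
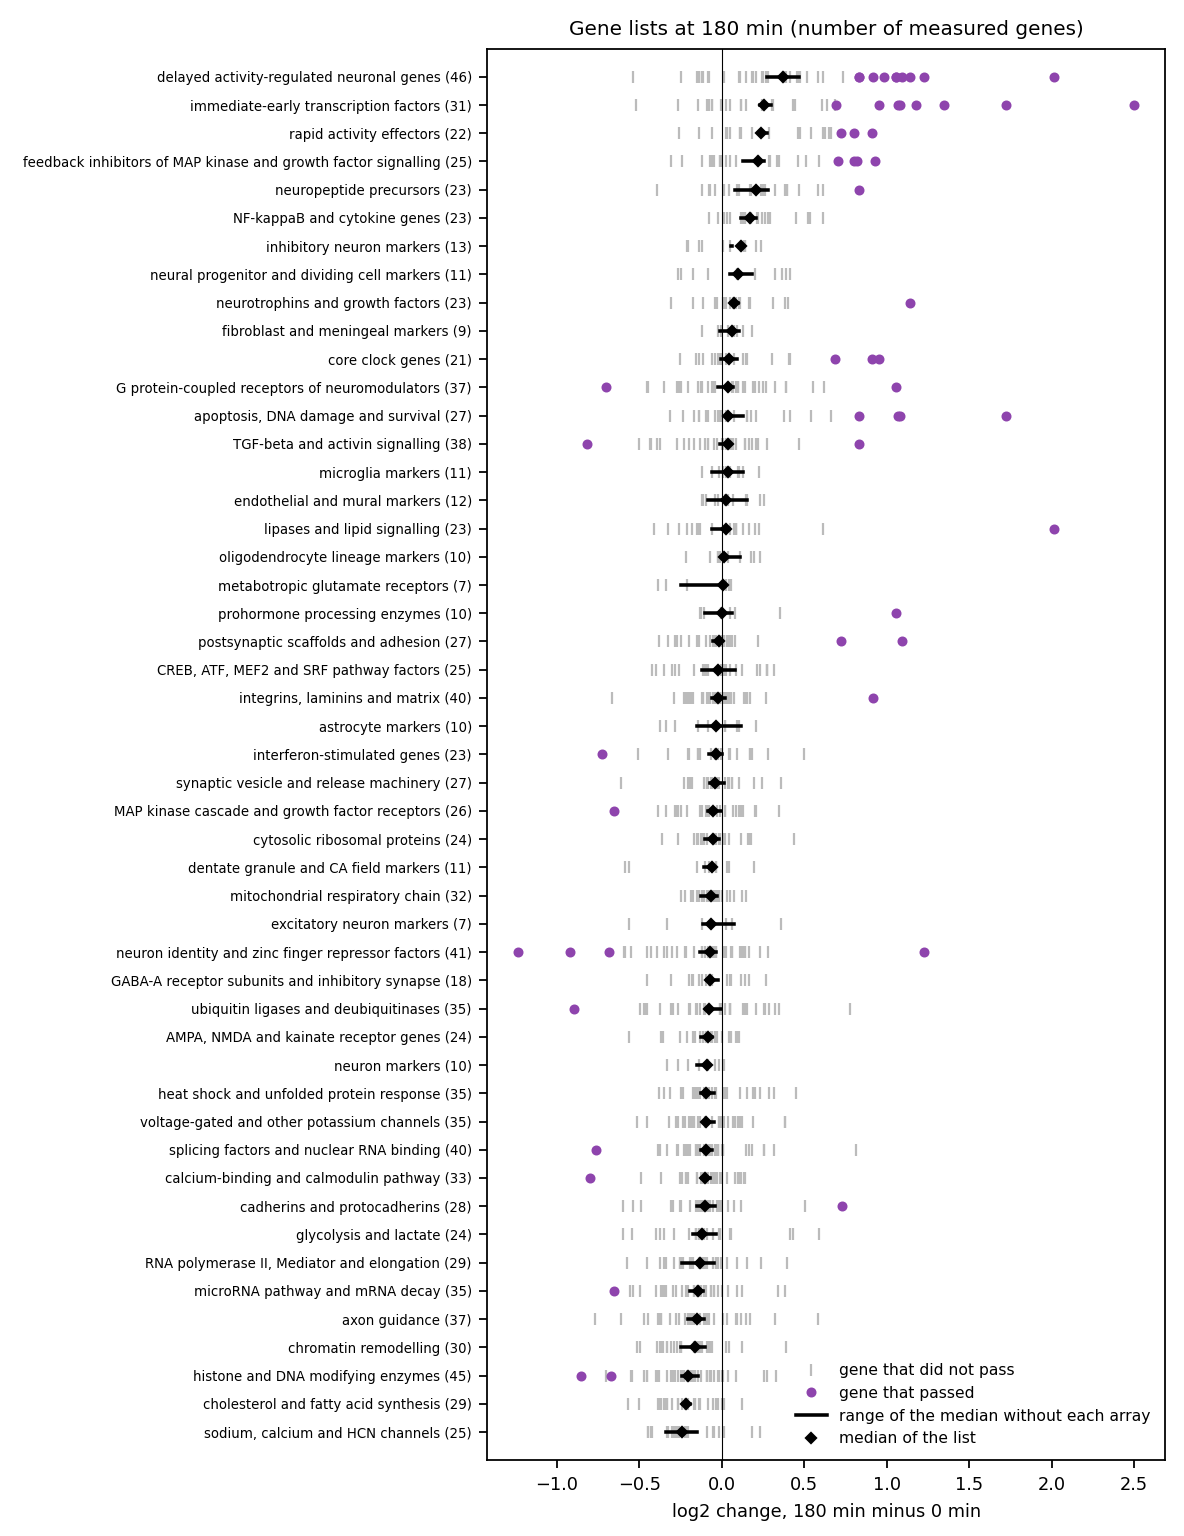
Log2 change at 180 min of the measured genes of each of the 49 lists, with purple points for genes that passed, grey ticks for the others, a diamond at the list median and a black bar over the medians without each array of 0 and 180 min. The delayed activity-regulated list has the highest median (0.37) and the sodium, calcium and HCN channel list the lowest (-0.24) with all arrays.

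The size of the gene moved with the direction of change. The genomic span, from RefSeq start to end, had a median of 13.2 kb for the higher genes, 80.1 kb for the lower genes and 17.7 kb for all tested genes. Zbtb20 spans 759 kb, Trps1 236 kb, Kmt2c 227 kb and Tnrc6b 230 kb, whereas Fos spans 3.38 kb, Gpr3 3.20 kb and Fosb 7.42 kb. Hunk, at 114 kb, and Homer1, at 101 kb, are long genes that rose. Over all genes, the median change fell by class of span from 0.09 for 1465 genes under 1 kb to -0.12 for 530 genes over 300 kb. The classes between had medians of 0.04 for 1 to 10 kb, -0.0042 for 10 to 30 kb, -0.04 for 30 to 100 kb and -0.08 for 100 to 300 kb.

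Spearman's rank correlation between change and span was -0.27 across 19856 genes, a description in which all genes share the same arrays and no p is given. It was -0.28 among genes above the olfactory receptor 95th percentile, -0.20 after quantile normalization and -0.19 without 180 min replicate 1. Between single arrays of 180 and 0 min it ran from -0.25 to -0.17. Between the 2 replicates of 180 min, where no treatment differs, it was -0.11, and between those of 0 min it was 0.02. The same value was -0.15 for 30 min and -0.18 for 300 min against the shared 0 min arrays.

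**Figure D5:**
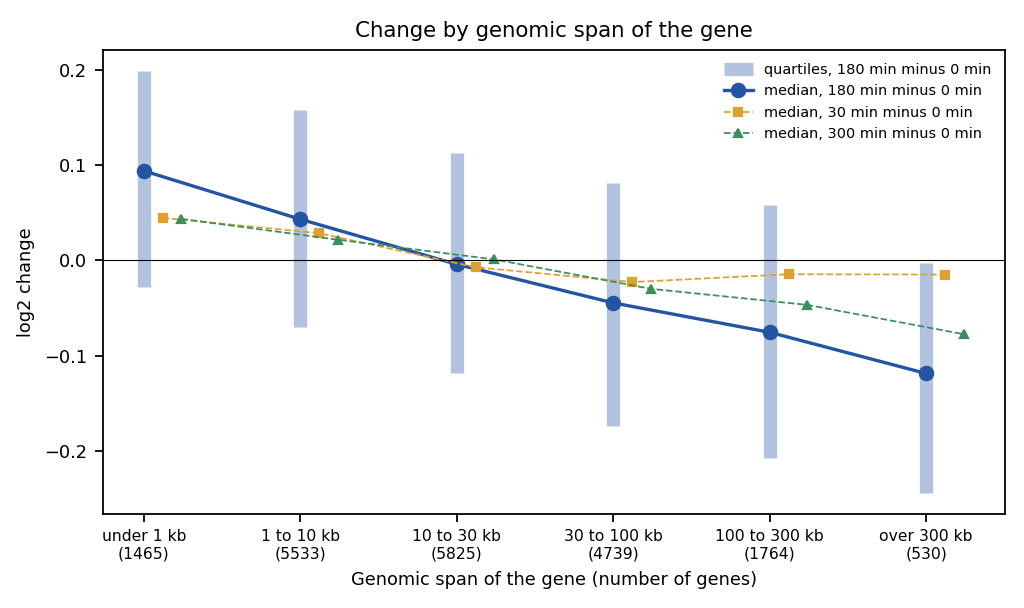
Median log2 change by class of genomic span, with bars for the quartiles at 180 min and the number of genes in each class under the axis. At 180 min the median goes from 0.09 under 1 kb to -0.12 over 300 kb, and the medians of 30 and 300 min, against the same 0 min arrays, go from 0.04 to -0.01 and from 0.04 to -0.08.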

How the data were processed

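RNA of the cultures was hybridised to Affymetrix Mouse Gene ST 1.0 arrays. The deposited values are signals on a log2 scale, per transcript cluster and array. No source names the base, and base 2 was inferred from a range of 1.22 to 14.96. How the authors corrected background, summarised probes and normalized, and the build, is not given in the sources used here. Background left in a dim signal makes its fold too small. No further scaling was applied.

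Of 35399 rows, 21789 had 1 symbol in the platform annotation, 1621 several and 11989 none. Of these, 21698 matched RefSeq genes by gene number. For 999 genes with several clusters the one with the highest mean over all 8 arrays was used. limma 3.58.1 in R 4.3.3 fitted a mean for each of 4 times to 8 arrays (lmFit, eBayes; 4 residual and 10.1 prior degrees of freedom). Two-sided p-values were adjusted over all 19938 genes (Benjamini-Hochberg) and called under 0.05. SE is the moderated standard error. The fit was tested on simulated data.

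All called genes could be named, with every array for the 12 largest changes each way, predicted and olfactory receptor genes left out. List members were named where they passed or were among the 4 smallest p. The 49 lists and the comparison itself were chosen with earlier results of these data known, so lists were described without a test. Alternatives covered the replicate block, 4 arrays alone, scaling, dim genes, clusters, rows, the prior and each array left out.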

Additional observations from a re-analysis of the deposited data

How the results depend on the processing

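With the replicate number as a block, 53 genes were called (37 higher, 16 lower), 51 of them among the 66. The deviations of same-numbered arrays correlated at -0.09 to 0.09 between times. These values cannot tell whether same-numbered arrays came from a shared dissection, which the labels do not say. With the 4 arrays of 0 and 180 min alone, 19 genes were called (18 higher, 1 lower), all among the 66. With every row tested, 1 gene was higher and 0 were lower (limma), against 1631 and 1700 rows at an unadjusted p under 0.05. Leaving out dim genes gave 102 genes (54 higher, 48 lower), and an intensity trend in the prior variance 112 (60 higher, 52 lower), 60 and 66 of them among the 66. The cause of these shifts was not tested, except that fewer genes or samples entered some fits. Leaving out 1 array gave between 15 and 68 genes in all, 11 to 59 higher and 2 to 9 lower. Quantile normalization (65 genes), centring (61), the mean of all clusters (70) and a robust prior (65) kept the count within 1.5 times. Spearman's rank correlation of change with span was -0.20 after quantile normalization and between -0.27 and -0.19 without each array. Over 220 named genes and 17 settings, 0 called genes changed direction, 489 values lost and 63 gained an adjusted p under 0.05. Leaving out an array could not reverse a called gene, because the arrays of 0 and 180 min did not overlap for any of the 66. The replicate block, the prior and the set of rows tested leave the change itself as it was, so they could not reverse it either. The number of arrays, and for dim genes the signal over background, limit what can be told.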

Other observations

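The genes just outside the threshold were again of both kinds. Nrn1, which encodes neuritin, a membrane-anchored protein that promotes neurite outgrowth, read 8.46 and 8.57 at 0 min and 9.09 and 9.41 at 180 min (0.74 ± 0.15 SE, limma adjusted p = 0.0552), and its change at 300 min was 1.01. Mir212, a microRNA gene known as a CREB target, had changes of 0.91 at 30 min, 0.74 at 180 min and 0.67 at 300 min (180 min, limma adjusted p = 0.0571). Lower values that did not pass were those of Itga6, a laminin receptor subunit gene (-0.67 ± 0.13, limma adjusted p = 0.0516), Gpam, a glycerol phosphate acyltransferase gene (-0.60 ± 0.12, 0.0524), and Myt1, a zinc finger factor gene (-0.73 ± 0.15, 0.0569).

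Of the 11 measured dentate granule and CA field markers none passed (limma), and 0 were higher and 2 lower at an unadjusted p under 0.05. These were Prox1, the homeobox gene of dentate granule cells, at -0.59 ± 0.12, and Nr3c2, the mineralocorticoid receptor gene, at -0.57 ± 0.13 (limma adjusted p of 0.062 and 0.0917).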
